A study of Bos taurus with 8 samples.

Results

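The genes followed here are 10 members of the endoplasmic reticulum (ER) stress response and of the integrated stress response: HSPA5, HSP90B1, PDIA4, HERPUD1, DNAJB9, XBP1, ATF4, DDIT3, ASNS and TRIB3. Every probe whose gene name in the scanner files was one of these was taken, which gave 25 of the 51282 probes of the array. The genes were chosen by name and function, although earlier results of these data were known when they were chosen. The cells are given in the labels as primary bovine Müller glia, the main supporting glia of the retina, grown for 18 to 21 days in vitro. A control group of 2 arrays, a group given recombinant HIV-1 TAT (100 ng/ml, 3 arrays) and a group given HIV-1 gp120 (60 ng/ml, 3 arrays) were collected after 24 h. TAT is the transcriptional activator of HIV-1 and gp120 its envelope glycoprotein. The treatment text names both proteins together for all samples, controls included, so the groups here follow the sample titles. The control and protein groups carry the replicate letters A and B, and the protein groups also C. What a letter stands for, such as a culture or an animal, is not stated, and p-values therefore measure only the spread between these samples, which may be technical.

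The ER folds secreted and membrane proteins, and an excess of unfolded protein there activates the sensors IRE1, ATF6 and PERK. IRE1 splices the XBP1 message, ATF6 is cleaved to a transcription factor, and PERK phosphorylates eIF2alpha, which slows translation while favouring that of ATF4. Other kinases phosphorylate the same factor when amino acids are short, heme is low or double-stranded RNA is present, and this shared route is the integrated stress response. In Müller glia these pathways are known as part of the reaction to retinal injury and metabolic stress.

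Labelled RNA from each sample was hybridised to 1 Agilent bovine array in 1 colour, and all 8 arrays lay on 1 slide. Between 55.46% and 64.62% of the spots of an array were well above background, and 0 were saturated. Of the 13 Müller glia markers on the array, 9 were well above background on all 8 arrays; RLBP1 and KCNJ10, which define these cells, were not, and CA14 and RGR were so on none. Markers of other cells were also present on all 8 arrays: 10 of 11 for microglia and macrophages, 8 of 9 for fibroblasts and stroma, 9 of 9 for pericytes and smooth muscle, 6 of 8 for endothelium, 3 of 8 for retinal pigment epithelium, 6 of 13 for retinal neurons and 2 of 6 for astrocytes, which the extraction text names. The part of other cells in any result was not tested. In such bulk samples fewer cells of a type and less RNA per cell cannot be told apart. The letter A arrays and control B lay in row 1 of the slide, and the remaining 4 in row 2. A separate scan (scan 1, detector voltage 471) read gp120 B and C, and scan 2 (voltage 431) the rest.

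Levels below are log2 signals of a probe relative to the 75th percentile of its array, so 0 is the level of that percentile and 1 unit is a 2-fold step. They describe a probe across arrays and do not rank different probes. Of the 25 probes, 24 were well above background on all 8 arrays, and every one of the 10 genes had at least 1 such probe. The exception was the TRIB3 probe that starts at base 148 of its transcript, which was well above background on 0 arrays and was left out of the tests. HSP90B1 and DNAJB9 have 1 probe each, and 8 genes kept several. Where a single value per gene is given it is that of its brightest probe, as in the test across all 11815 genes. Probe positions are those in the file headers, on the build Btau_3.1.

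The sequences of the probes on which the values turn are shown here because probes of the same gene did not always give the same order of arrays. HSPA5 is shown because its 4 probes, spread along the transcript, had the same lowest and the same highest array. They lie on the minus strand of chr11 and start at bases 345, 1500, 1991 and 2357 of the transcript. Their file coordinates are chr11:99546701-99546760, chr11:99544070-99544547, chr11:99543579-99543638 and chr11:99543141-99543200. Of the probe nearest the 3′ end only the first 30 of its 60 bases are given.
HSPA5 base 345: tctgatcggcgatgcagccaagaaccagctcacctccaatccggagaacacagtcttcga
HSPA5 base 1500: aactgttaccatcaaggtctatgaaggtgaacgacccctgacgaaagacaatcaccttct
HSPA5 base 1991: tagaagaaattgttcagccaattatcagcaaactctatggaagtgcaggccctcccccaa
HSPA5 base 2357, first 30: atttaacaattgggtcatgtgtatctggtg

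DDIT3 is shown because its probes differed in direction. Both lie on the plus strand of chr5, at chr5:60419092-60419151 and chr5:60419476-60419535, and their GC content is 55% and 35%.
DDIT3 base 406: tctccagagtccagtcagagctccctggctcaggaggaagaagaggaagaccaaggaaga
DDIT3 base 790, first 30: gcttagggtcgacgatagaaaagggtctta
DNAJB9 is shown because it was the only member past the threshold in any comparison of the primary analysis. Its probe lies at chr4:61879654-61879713 on the minus strand.
DNAJB9 base 1684, first 30: tgtgtgtgtgtggtttttcttctttgcact
XBP1 is shown because a probe in the middle of the transcript and those at its 3′ end had different highest arrays. The probes that start at bases 1673 and 1701 share 32 bases and are not independent.
XBP1 base 957: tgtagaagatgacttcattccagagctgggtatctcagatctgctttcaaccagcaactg
XBP1 base 1673, first 30: aatctttccgtgctagtgtaacttttggac

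The question of the protein comparisons was whether TAT or gp120 moved the ER stress genes away from the control level, and neither comparison gave a member past the threshold. In the limma fit across all 11815 genes, 0 of 10 members and 0% of all genes had an adjusted p under 0.05 for TAT minus control, and the same held for gp120 minus control and for TAT minus gp120. At an unadjusted p under 0.05, 0 of 10 members were found in each, beside 1.18%, 2.40% and 2.29% of all genes. The median difference of the 10 members was 0.04 for TAT and 0.19 for gp120, beside -0.03 and -0.01 over all genes. The limma adjusted p was 1 for TAT and 0.999 for gp120 for every member. Intervals were wide: on the brightest probes the 95% intervals reached down to -1.78 (DNAJB9) and up to 1.36 over both comparisons. These fits had no term for the replicate letter. With the letter as a block (the replicate block) the intervals reached from -1.05 to 1.16. Changes of more than 2-fold in some members are therefore not excluded by these arrays. The TAT and gp120 comparisons share the 2 control arrays, so a likeness between them is partly built in.

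**Figure D1:**
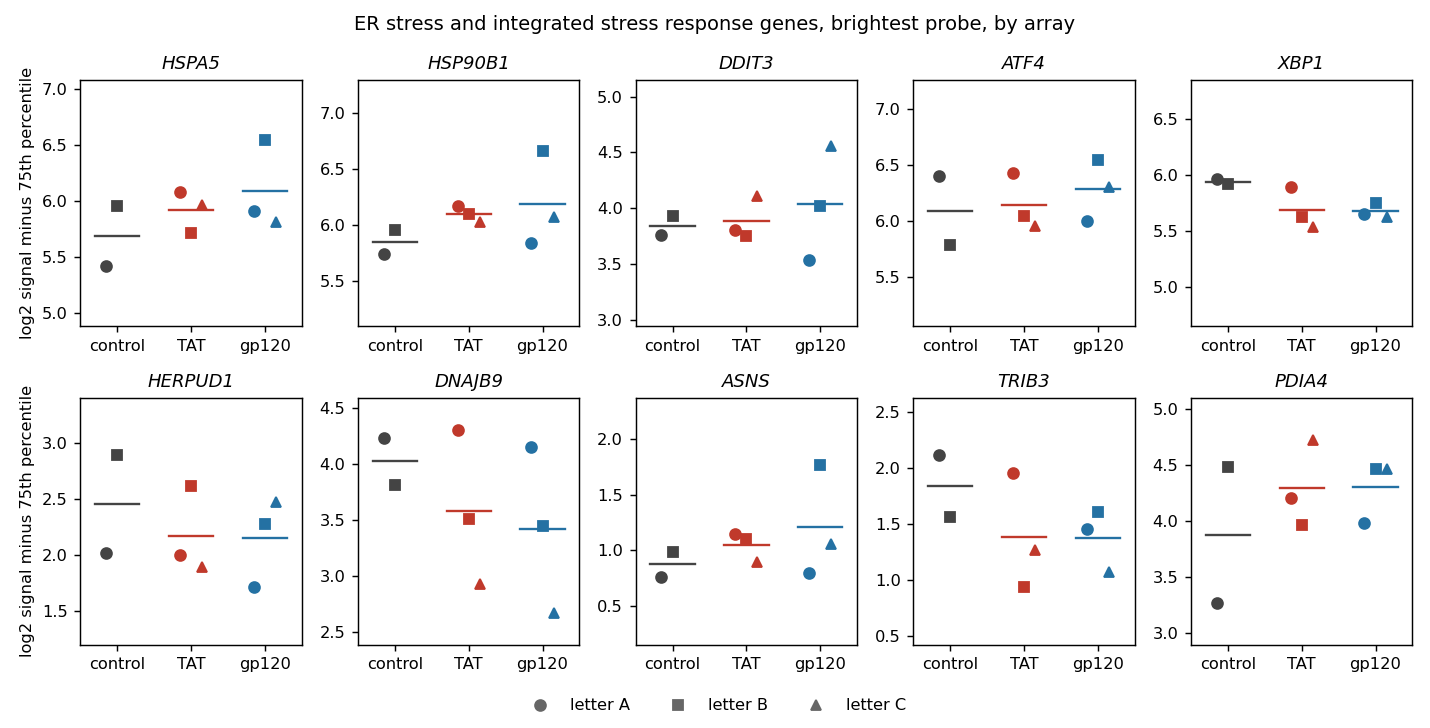
Level of the 10 genes on each array (brightest probe, log2 signal minus the array's 75th percentile, panels of equal span), by group on the x axis; marker shapes are replicate letters and lines are group means. The groups overlap for most genes, gp120 B stands highest for HSPA5, HSP90B1, ATF4 and ASNS, and DNAJB9 follows the letter in every group.

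Among the chaperones and folding enzymes, HSPA5 encodes BiP, the main HSP70 of the ER lumen and the protein that holds the sensors inactive. Its brightest probe read 5.42 and 5.95 in the controls A and B, 6.08, 5.71 and 5.96 in TAT A, B and C, and 5.91, 6.54 and 5.81 in gp120 A, B and C. Control A was the lowest and gp120 B the highest array, while control B lay inside the range of both treated groups. The difference was 0.23 ± 0.30 (SE) for TAT and 0.40 ± 0.30 for gp120. Without control A the TAT difference was -0.04.

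The other HSPA5 probes shared these extremes. Levels at base 1991 ranged from 3.28 to 4.73, those at base 1500 from 1.33 to 3.85 and those at base 345 from -1.43 to 0.41. On each of the 4 probes control A was lowest and gp120 B highest, and TAT B was the next lowest. The size of the spread differed between probes, at 1.12 log2 units for the probe at base 2357 and 2.52 for that at base 1500. The gp120 minus control difference was 0.32 to 1.02 over the 4 probes, and the TAT minus control difference 0.09 to 0.24.

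HSP90B1 encodes GRP94, the HSP90 of the ER. It read 5.74 and 5.96 in the controls, 6.17, 6.10 and 6.03 in TAT A, B and C, and 5.84, 6.66 and 6.07 in gp120 A, B and C. All 3 TAT arrays lay above both controls, by a small margin, and the gp120 arrays overlapped them. HSP90B1 was the only member whose TAT arrays were all above the controls, which held for 4.90% of all genes. The difference was 0.25 ± 0.28 (SE) for TAT and 0.34 ± 0.28 for gp120. With scan as a block, which leaves gp120 A alone against the controls, the gp120 difference was -0.01.

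PDIA4 encodes ERp72, a disulfide isomerase of the ER. It read 3.27 and 4.48 in the controls, 4.20, 3.96 and 4.72 in TAT A, B and C, and 3.98, 4.46 and 4.46 in gp120 A, B and C. The controls differed from each other by more than the treated arrays of either group did among themselves. The difference was 0.42 ± 0.40 (SE) for TAT and 0.43 ± 0.40 for gp120. It rested on control A: without it the values were -0.19 and -0.18. The probe at base 1085 read -2.29 and -0.86 in the controls, -0.82, -1.34 and -0.73 in TAT A, B and C, and -0.91, 0.03 and -0.37 in gp120 A, B and C. Control A was again lowest, and gp120 A lay just below control B. There gp120 minus control was 1.16 ± 0.46, with an unadjusted 95% interval of 0.09 to 2.23, and 1.09 with the replicate block, while the probe at base 226 gave -0.10 ± 0.40.

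HERPUD1 is an ER membrane protein that takes part in the degradation of misfolded proteins. Its brightest probe, at base 1661, read 2.02 and 2.89 in the controls, 2.0, 2.62 and 1.89 in TAT A, B and C, and 1.71, 2.28 and 2.47 in gp120 A, B and C. The highest array was control B, and all groups overlapped. The difference was -0.29 ± 0.38 (SE) for TAT and -0.31 ± 0.38 for gp120. The probes at bases 588 and 1115 gave gp120 minus control differences of 0.53 and 0.32, opposite in sign to the brightest probe.

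DNAJB9 encodes ERdj4, a J-domain cochaperone of BiP. It read 4.23 and 3.81 in the controls, 4.30, 3.51 and 2.93 in TAT A, B and C, and 4.15, 3.44 and 2.67 in gp120 A, B and C. The 3 arrays of letter A lay within 0.15 of each other whatever their treatment, and the lowest arrays were those of letter C, which has no control. The difference was -0.44 ± 0.51 (SE) for TAT and -0.60 ± 0.51 for gp120. With the replicate block these values were -0.09 ± 0.19 and -0.25 ± 0.19, and with slide row as a block 0.28 and 0.12.

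Among the transcription factors, XBP1 acts downstream of IRE1 and drives genes of folding and degradation. None of its 3 probes was taken as specific for the spliced or unspliced form, and the splice itself was not analysed here. At base 1673 it read 5.97 and 5.92 in the controls, 5.90, 5.63 and 5.54 in TAT A, B and C, and 5.66, 5.75 and 5.63 in gp120 A, B and C. All 6 treated arrays lay below both controls. Arrays that did not overlap in this direction were found for 9.17% of all genes for TAT and 7.44% for gp120, and for 1 of 10 members, XBP1, in each.

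The XBP1 difference was -0.25 ± 0.21 (SE) for TAT and -0.27 ± 0.21 for gp120, the smallest SE of the 10 members. It did not keep its sign under normexp background correction, at 0.02 and 0.03. The probe at base 1701 read 4.84 and 4.61 in the controls and 4.37 to 4.85 in the treated arrays, which overlapped. The probe at base 957 read 2.03 and 2.50 in the controls, 2.25, 2.23 and 2.01 in TAT A, B and C, and 2.16, 2.93 and 2.68 in gp120 A, B and C. On that probe gp120 B and gp120 C were the highest arrays, and gp120 minus control was 0.32 ± 0.29 (SE).

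ATF4 is the transcription factor whose translation rises when eIF2alpha is phosphorylated, so its message level is only part of its regulation. At base 1343 it read 6.40 and 5.78 in the controls, 6.43, 6.04 and 5.95 in TAT A, B and C, and 6.0, 6.54 and 6.30 in gp120 A, B and C. The controls spanned most of the range of the 8 arrays. The difference was 0.05 ± 0.29 (SE) for TAT and 0.18 ± 0.29 for gp120. The probes at bases 571 and 903 gave -0.06 and -0.12 for TAT, and 0.07 and 0.31 for gp120.

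DDIT3 encodes CHOP, a factor induced by ATF4 and linked to cell death in prolonged stress. At base 790 it read 3.76 and 3.93 in the controls, 3.81, 3.75 and 4.11 in TAT A, B and C, and 3.54, 4.02 and 4.56 in gp120 A, B and C. The highest arrays were the 2 of letter C. At base 406 it read 1.20 and 0.42 in the controls, 0.75, 0.93 and 0.39 in TAT A, B and C, and 0.14, 1.19 and 0.44 in gp120 A, B and C. There control A was highest and the letter C arrays were among the lower ones, and gp120 A was lowest on both probes.

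For DDIT3 the difference on the brightest probe was 0.04 ± 0.32 (SE) for TAT and 0.19 ± 0.32 for gp120. On the probe at base 406 it was -0.12 ± 0.38 and -0.22 ± 0.38. The probes thus did not share a sign in either comparison, and no difference exceeded its error.

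Among the targets of ATF4, ASNS encodes asparagine synthetase. Its brightest probe, at base 1582, read 0.76 and 0.99 in the controls, 1.15, 1.1 and 0.90 in TAT A, B and C, and 0.80, 1.76 and 1.06 in gp120 A, B and C. gp120 B was the highest array and TAT A the next, and the groups overlapped. The difference was 0.17 ± 0.31 (SE) for TAT and 0.33 ± 0.31 for gp120. The probe at base 851 also had gp120 B highest and gave 0.59 ± 0.30 for gp120.

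TRIB3 encodes a pseudokinase that restrains ATF4 and AKT. At base 1873 it read 2.11 and 1.56 in the controls, 1.95, 0.93 and 1.26 in TAT A, B and C, and 1.45, 1.60 and 1.07 in gp120 A, B and C. Control A was highest and TAT B lowest. The difference was -0.46 ± 0.35 (SE) for TAT and -0.46 ± 0.35 for gp120. The probe at base 1753 gave -0.48 ± 0.49 and -0.69 ± 0.49, the same sign in both.

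**Figure D2:**
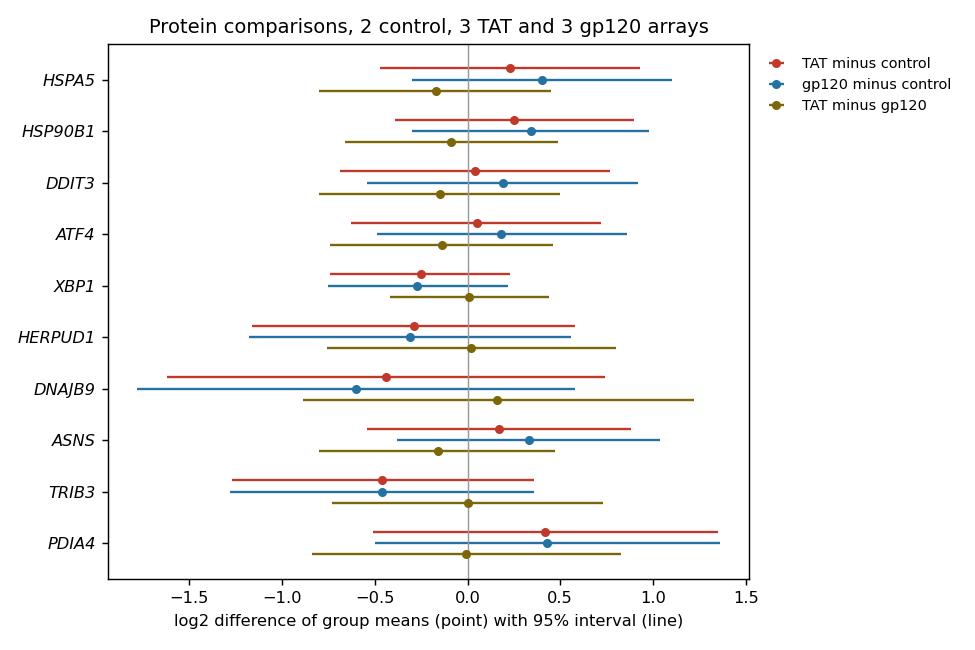
Log2 difference of group means (points) with its 95% interval (lines) for the brightest probe of each gene in the 3 protein comparisons, from 2 control, 3 TAT and 3 gp120 arrays. The fits had no letter term. Every interval shown holds 0, and the intervals of XBP1 are the narrowest and those of DNAJB9 the widest.

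On the brightest probes no TAT minus gp120 difference exceeded its SE. It ranged from -0.17 ± 0.27 (SE) for HSPA5 to 0.16 ± 0.46 for DNAJB9, with a median of -0.05 beside -0.02 over all genes. The 95% intervals of the members lay between -0.89 and 1.22, and between -0.77 and 0.68 with the replicate block. Differences within these bounds were not excluded. Without gp120 B the HSPA5 difference was 0.06. Other probes of the same genes gave larger values, at -0.79 ± 0.48 for HSPA5 base 1500 and -0.55 ± 0.41 for PDIA4 base 1085.

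Both dimmer HERPUD1 probes were lower with TAT than with gp120 in all 3 same-letter pairs. At base 1115 the TAT arrays A, B and C read 1.08, 1.21 and 1.20 and the gp120 arrays 1.71, 1.54 and 1.78, which did not overlap. The share of all probes that were lower in all 3 pairs or did not overlap is not given. At base 1115 the difference was -0.51 ± 0.20 (SE), with a 95% interval of -0.98 to -0.05 that is not adjusted for the number of probes. At base 588 it was -0.45 ± 0.24, and with the replicate block its interval ran from -0.81 to -0.09. The brightest probe gave 0.02 ± 0.34, so the HERPUD1 probes did not give 1 answer. Without the replicate block, 1 of the 24 probes had an unadjusted interval without 0 in this comparison. There was 1 in gp120 minus control (PDIA4 base 1085) and 0 in TAT minus control. With the replicate block such intervals were those of HERPUD1 bases 588 and 1115 in this comparison. In gp120 minus control they were those of PDIA4 base 1085 and HERPUD1 base 588, the latter at 0.53 with 0.11 to 0.96. No share of all 31153 tested probes is given beside these counts, so they cannot be read as more than other probes would give.

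Same-letter pairs gave the same picture. TAT was above the control in both pairs (A and B) for 3 members, HSP90B1, ATF4 and ASNS, and below it in both for XBP1, HERPUD1 and TRIB3. Of all genes 19.0% were higher and 31.3% lower in both pairs. gp120 was above the control in both pairs for HSPA5, HSP90B1 and ASNS and below it in both for XBP1, HERPUD1 and DNAJB9, beside 20.3% and 26.7% of all genes. In the 3 pairs of TAT with gp120, DNAJB9 was higher with TAT in each (by 0.15, 0.07 and 0.26), and 13.6% of all genes were higher in all 3.

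Within letter B the differences of the members between the gp120 array and the control ran from -0.61 (HERPUD1) to 0.77 (ASNS). No share of all genes is given beside these single differences. gp120 B exceeded control B by 0.59 for HSPA5, 0.70 for HSP90B1, 0.76 for ATF4 and 0.77 for ASNS. In the pair of letter A the same differences were 0.48, 0.10, -0.41 and 0.04. HERPUD1, DNAJB9 and XBP1 were lower on gp120 B than on control B, at -0.61, -0.37 and -0.17. PDIA4 gave -0.02 in letter B and 0.71 in letter A. The array gp120 B was the highest of the 8 on 13 of the 24 probes of the 10 genes, beside 17.1% of all 31153 tested probes. Control A was the lowest on 9 of 24, beside 15.6% of all probes. Probes of a gene are read from the same RNA, so these counts are not of independent measurements.

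The array gp120 B also stood apart in other values. The median over 4274 transcripts of the difference between a probe near the 5′ end and one near the 3′ end, at least 300 bases apart and centred on its mean over the 8 arrays, was 0.16 there and -0.07 to 0.08 on the other arrays. For HSPA5 that difference was 0.54 on gp120 B and -0.20 to 0.06 on the others. For HERPUD1 it was highest on gp120 A, at 0.59 beside 0.55 on gp120 B. For XBP1 it was highest on gp120 C, at 0.58 beside 0.48 on gp120 B. For DDIT3 it ran from -0.86 on gp120 C to 0.69 on control A. The summed signal of astrocyte markers was also highest on gp120 B, at 8.45 times the 75th percentile beside 2.9 to 4.52 on the other arrays. That excess lay in GJA1, a gap junction gene (2.48 there and -3.54 to 0.49 elsewhere), while S100B read 1.47 there and 1.15 to 2.11 elsewhere. On the same array the sum of pericyte and smooth muscle markers was 467 beside 141 to 388. The part of these in the members' values was not tested.

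**Figure D3:**
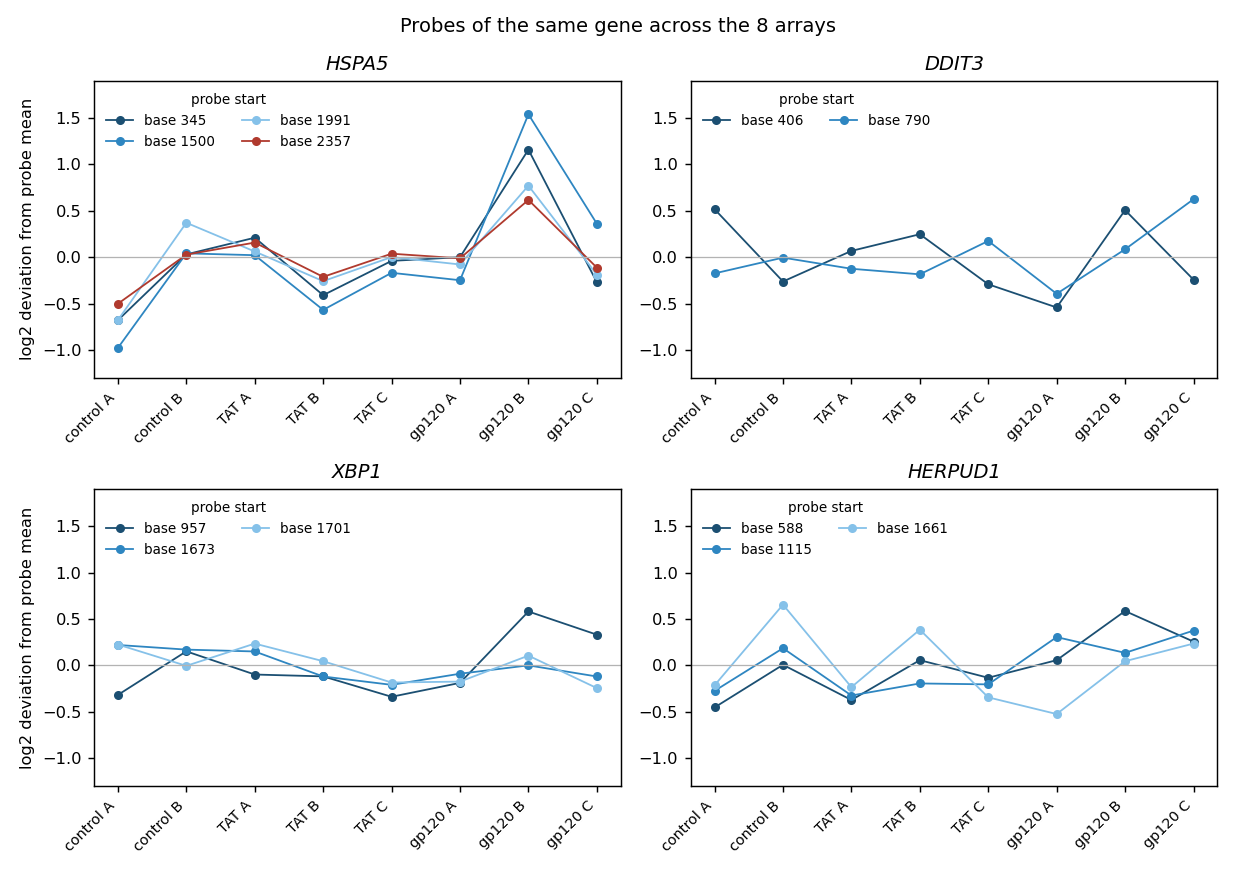
Deviation of each probe from its own mean over the 8 arrays (y axis, log2 units) for the 4 genes named in the panels; each line is a probe, labelled by its first base in the transcript. The 4 HSPA5 probes share their lowest (control A) and highest (gp120 B) arrays, while the DDIT3, XBP1 and HERPUD1 probes do not follow each other on every array.

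Over the 8 members with several tested probes, all probes shared a sign in 5 for TAT minus control: HSPA5, PDIA4 and ASNS were above 0 and XBP1 and TRIB3 below it. For gp120 minus control this held for 4, with HSPA5, ATF4 and ASNS above 0 and TRIB3 below it. PDIA4 and XBP1 had mixed signs for gp120, ATF4 for TAT, and DDIT3 and HERPUD1 for both.

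The replicate letters were compared at equal group to describe the spread between letters, which same-letter pairs and the replicate block set aside. Between letters B and A, 0 of 10 members passed an adjusted p of 0.05, beside 13.2% of all genes. Between C and A, 1 of 10 passed, beside 14.5%, and between C and B 0 of 10, beside 1.28%. At an unadjusted p under 0.05 the members were HERPUD1 and DNAJB9 (B minus A, beside 30.5% of all genes), DDIT3 and DNAJB9 (C minus A, 32.6%) and DNAJB9 (C minus B, 14.9%). The members' counts were thus not above the share of all genes.

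DNAJB9 was lower in letter C than in letter A, with a log2 difference of -1.37 ± 0.19 (SE) and a limma adjusted p of 0.00871. The 3 arrays of letter A read 4.15 to 4.30 and the 2 of letter C read 2.67 and 2.93, which did not overlap, as in 26.8% of all genes in this direction. Letter B lay between them at 3.44 to 3.81. B minus A was -0.64 ± 0.16 (limma adjusted p of 0.051) and C minus B -0.73 ± 0.19 (0.169). Of all genes 6.98% were lower in C than in A past the threshold.

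The DNAJB9 call between C and A was not kept without TAT C (-1.44, limma adjusted p of 0.0855) or without gp120 C (-1.29, 0.134), each of which leaves 1 array for letter C. A block for slide row gave -1.09 (0.174), and scan 2 alone -1.27 (0.164). Within row 2, letter C was lower than letter B by a log2 difference of -0.67. The summed signal of retinal pigment epithelium markers was also lowest in letter C, at 47.3 and 48 times the 75th percentile, beside 80.2 to 92.7 in letter A and 111 to 204 in letter B. Nearly all of that sum was TTR, the transthyretin gene, which read 5.54 and 5.56 in letter C and 6.32 to 7.67 elsewhere. SERPINF1, of the same list, was instead highest in letter C, at -2.03 and -1.80. The part of these markers in the DNAJB9 values was not tested.

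Other members differed between letters without passing the threshold. HERPUD1 was higher in B than in A by 0.68 ± 0.23 (SE, limma adjusted p of 0.101), with all 3 probes above 0. DDIT3 was higher in C than in A by 0.65 ± 0.22 on its brightest probe (limma adjusted p of 0.101) and by -0.26 ± 0.39, that is lower, on the probe at base 406. PDIA4 was higher in C than in A by 0.68 ± 0.34 (limma adjusted p of 0.211), with all 3 probes above 0. Both TRIB3 probes were below 0 in B and C against A, from -1.0 to -0.47.

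Further genes of these pathways were counted in 7 lists, of which 111 genes were tested. In TAT minus control, gp120 minus control and TAT minus gp120, 0 of them passed an adjusted p of 0.05. The lists' medians lay between -0.15 and 0.13 over these comparisons. Of the 19 ER chaperones and folding enzymes, 15 were above 0 in each protein against the control, with medians of 0.09 for TAT and 0.13 for gp120. Over all genes 45.5% and 48.6% were above 0. Between letters at equal group, 16 of the 19 were above 0 for B minus A, with a median of 0.22 beside -0.01 over all genes. For C minus A 11 were above 0, with a median of 0.08, and for C minus B 5, with a median of -0.18. The spread between letters was thus as large as the shift with either protein.

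P4HB, the classical protein disulfide isomerase, led that list. It read 6.34 and 6.07 in the controls, 6.60, 6.50 and 6.55 in TAT A, B and C, and 6.52, 6.86 and 6.67 in gp120 A, B and C, and all 6 treated arrays were above both controls, an order found for 4.90% (TAT) and 5.48% (gp120) of all genes. The difference was 0.34 ± 0.21 (SE) for TAT and 0.48 ± 0.21 for gp120. HYOU1, an ER HSP110, gave 0.38 ± 0.26 for TAT but 0.07 without control A, and CALR, the lectin chaperone calreticulin, 0.41 ± 0.30 for gp120, with gp120 B at 7.04 again the highest array and a difference of 0.14 without it.

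Among 19 genes of ER-associated degradation and the translocon the medians were -0.02 for TAT and -0.15 for gp120. EDEM1, which directs misfolded glycoproteins to degradation, was higher with TAT than with gp120 by 0.80 ± 0.32 (SE, unadjusted limma p of 0.0345). That value came from gp120 B and gp120 C, which were scanned apart and read 1.76 and 2.36, while gp120 A read 2.91 and TAT 3.04 to 3.36. Without gp120 B it was 0.51, and within scan 2 it was 0.24. Of 15 sensors, eIF2alpha kinases, phosphatases and exchange factors, 3 were above 0 for TAT and 6 for gp120. EIF2AK2, the double-stranded RNA kinase PKR, gave -0.55 ± 0.27 for gp120, and -0.34 without control A.

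Among 10 partner transcription factors ATF3, a stress-induced repressor that ATF4 activates, had the smallest p. It read 5.53 and 4.71 in the controls, 4.80, 3.84 and 3.49 in TAT A, B and C, and 4.88, 4.08 and 3.93 in gp120 A, B and C. Both proteins lay below the control of the same letter in each pair, and the letter A arrays were the highest of their group. The difference was -1.08 ± 0.48 (SE) for TAT and -0.83 ± 0.48 for gp120. Without control A it was -0.66 and -0.41, and with slide row as a block -0.40 and -0.15, the smallest of 20 alternatives. Over these it ran from -1.49 to -0.40 for TAT and from -1.24 to -0.15 for gp120, and it kept its sign in all 20. With the replicate block, 1 of the 10 factors had an unadjusted limma p under 0.05 for each protein, and 0 without it. No share of all genes is given beside this count.

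Of 22 targets of the integrated stress response, 6 were above 0 for TAT and 12 for gp120, with medians of -0.11 and 0.02. With the replicate block 11 were above 0 in each, and both medians were -0.01. The 2 with the smallest p for gp120, VLDLR and TNFRSF10D, were below the control. VLDLR, a lipoprotein receptor, gave -0.93 ± 0.32 (SE, unadjusted limma p of 0.0199), but 0.47 with values of the authors' deposited table. TNFRSF10D, a receptor of the TRAIL family, gave -1.03 ± 0.38 (unadjusted limma p of 0.0277), -0.50 without control A, and -0.26 as the mean of its probes. The 13 aminoacyl-tRNA synthetases had medians of -0.05 and 0.02, and the 13 cytosolic heat shock proteins -0.04 and 0.08.

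Between letters, 8 of the 111 list genes (7.21%) passed for B minus A, 10 (9.01%) for C minus A and 0 for C minus B, beside 13.2%, 14.5% and 1.28% of all genes. These were 18 calls in 14 genes. The summed signal of the pericyte and smooth muscle markers differed over the same letters, at 141 to 226 times the 75th percentile in letter A, 298 to 467 in B and 238 to 274 in C. Of its 9 genes TAGLN, RGS5, MYH11 and CNN1 were lower on every letter A array than on every other, and the remaining 5 overlapped. No share of all genes is given beside this count. The largest part of the sum came from ACTA2, one of the 5, which read 6.23 to 7.85 over the 8 arrays. The part of these markers in the calls was not tested. Each call among the integrated stress response targets and the partner transcription factors was a lower level than in letter A. GDF15, a secreted stress cytokine, gave -1.67 ± 0.19 (SE) for B minus A and -1.84 ± 0.22 for C minus A (limma adjusted p-values of 0.00484 and 0.00574). ATF3 gave -0.87 ± 0.16 and -1.13 ± 0.19 (0.0206 and 0.015).

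PPP1R15A encodes GADD34, the subunit that brings phosphatase to eIF2alpha. It gave -0.92 ± 0.21 (SE) for B minus A and -1.34 ± 0.25 for C minus A (limma adjusted p-values of 0.0398 and 0.0211), although values of the authors' deposited table gave 0.04 for the latter. CEBPB, a partner of CHOP and ATF4, gave -1.03 ± 0.24 for C minus A (0.037), and its relative CEBPD -0.81 ± 0.17 for B minus A (0.0309). DDIT4, an inhibitor of mTORC1, gave -1.04 ± 0.20 for B minus A (0.0229). SESN2, which restrains mTORC1 when leucine is short, gave -0.74 ± 0.18 for B minus A (0.046) on its brightest probe, but the mean of its probes gave 0.14.

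Calls among the ER, translation and heat shock lists went both ways. ERO1A, the oxidase that recharges disulfide isomerases, gave -1.30 ± 0.26 (SE) for C minus A (limma adjusted p of 0.0252), and the translocon subunit SEC61A1 -0.84 ± 0.20 (0.0393). DERL3, a degradation factor, was higher by 0.97 ± 0.21 (0.0288), and EIF2B2, a subunit of the exchange factor for eIF2, by 0.89 ± 0.21 (0.0379). IARS1 was higher by 0.73 ± 0.17 for B minus A (0.0419) and MARS1 by 1.16 ± 0.27 for C minus A (0.0364), the latter at -0.10 with values of the authors' deposited table. These 2 charge transfer RNA with isoleucine and methionine. HSPB8, a small heat shock protein of chaperone-assisted autophagy, was higher by 2.06 ± 0.16 in B and 2.02 ± 0.19 in C than in A (0.00204 and 0.00286).

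**Figure D4:**
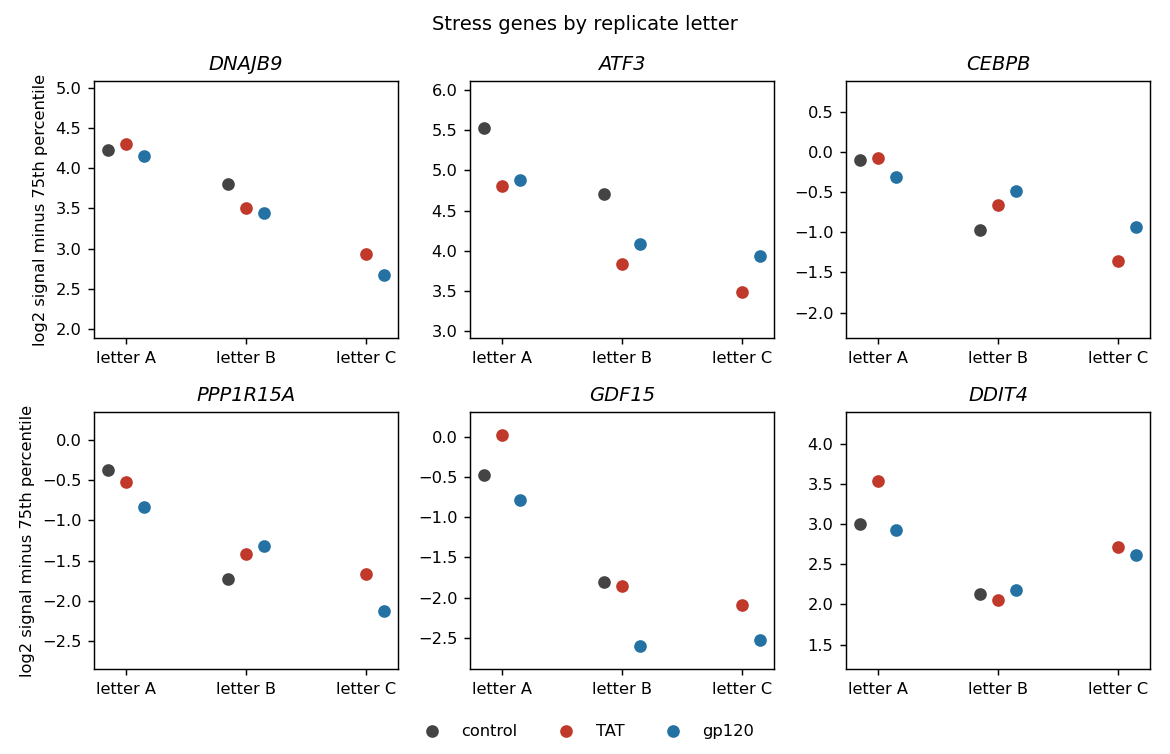
Level (log2 signal minus the array's 75th percentile) of DNAJB9 and of 5 genes of the integrated stress response on each array, by replicate letter on the x axis and group by colour, with panels of equal span. The letter A arrays of each group lie above the others of that group in all 6 panels, and letter C has no control. The panels were picked from genes called between letters in these same data. SESN2 and CEBPD, also called, are not shown and do not keep this order. SESN2 read 2.97 in TAT C and 2.90 in TAT A, and CEBPD 4.98 in gp120 C and 4.84 in gp120 A.

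HSPB8 and GDF15 for B minus A were the calls among the 18 that passed with each of the 8 arrays left out. With slide row as a block 0 of the 18 passed, with adjusted p-values of 0.07 to 0.426, and all 18 kept their sign. With scan as a block 9 of 18 passed. The letters are divided unevenly over the rows (letter A lies in row 1 alone and letter C in row 2 alone), so a comparison of A with C cannot be made within a row.

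For some members, the genes whose level followed theirs most closely over the 8 arrays were listed as a description. For HSPA5 these were ARV1, TMEM158, SART3, PLOD2 and MFSD9 (Pearson r of 0.989 to 0.927), each with gp120 B highest and control A lowest. For DDIT3 they were PSMD13, MCAT, CUEDC1, PSMD11 and NUP35 (0.987 to 0.962), all with gp120 C highest and gp120 A lowest. All genes were read from the same 8 RNA samples.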

How the data were processed

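Intensities in the scanner files were made by the authors, per the file headers, with Agilent Feature Extraction 11.5.1.1. The protocol (GE1_1105_Oct12) subtracted background, detrended, and set surrogates for low spots, which compresses differences of dim probes. The deposited table gives log2 values by gene name. How it was made is not stated in these sources, so it was only an alternative.

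Log2 processed signals, less the 75th percentile of the array, were averaged over the spots of a probe, without control spots and outliers (4 to 37 per array). Probes were kept if well above background throughout 1 group or more (31153 of 51282). RefSeq's gene table named 28112 probes through accessions, 6484 through symbols and 153 through synonyms, and 16533 had no name. The protein comparisons used limma 3.58.1 (R 4.3.3), with all 8 arrays in 1 two-sided fit, and Benjamini-Hochberg adjustment over 11815 genes, and letters a fit of group and letter. All p-values come from limma, and the code was tested on simulated data. Tables and plots used Python 3.11.15 with pandas 2.3.3, numpy 2.4.6 and matplotlib 3.10.9.

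Letters were taken as pairs in the same-letter differences and the replicate block, while the main protein fits had no letter term. Deviations from group means correlated at 0.377 to 0.743 in the 7 same-letter pairs of arrays and at -0.657 to 0.419 in 14 others. All 10 members were named. Of each list the genes with the smallest p per comparison were eligible, and not all are given. The comparison of 5′ with 3′ probes was chosen after seeing the data. The members and lists were chosen with earlier results of these data known. Promoters and protein sequences were not analysed here. The number of arrays limits the precision.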

Additional observations from a re-analysis of the deposited data

How the results depend on the processing

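The replicate block (letter) changed no member's call in the protein comparisons, with 0 of 10 members past the threshold with and without it. It turned DDIT3 for TAT minus control to -0.14. Over 57 single values and 1116 alternative values, 894 kept direction and side of the threshold, 46 changed sign, 169 lost and 7 gained a call, and 35 values never changed sign. No member passed in a protein comparison under any alternative run. Genes past the threshold there with the deposited table numbered 4 (TAT), 4 (gp120) and 16 (TAT minus gp120), and 0 to 1 with an array left out (1 without control A in the first 2, 1 without gp120 A in the last). Between letters the counts for B minus A, C minus A and C minus B were 907, 843 and 60 without a filter on dim probes, 757, 766 and 50 with the deposited table, and 3, 36 and 64 with a block for slide row. Scan 2 alone gave 306, 90 and 7, and scan as a block 714 and 818 for the first 2, against 1561, 1716 and 151. With an array left out they ran from 493 (without either control) to 874, from 144 (without gp120 C) to 1478 and from 15 (without gp120 C) to 130. Members past the threshold became 2, 2 and 1 with normexp. For B minus A they became 1 with only probes above background on all arrays, with the mean of a gene's probes or with no group term. For C minus A they became 0 with slide row as a block or in scan 2 alone, and 0 to 1 with an array left out.

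Signs turned as follows, and the cause was not tested. With the mean of a gene's probes, DDIT3 gave -0.04 and ATF4 -0.04 (TAT), DDIT3 -0.01 and HERPUD1 0.18 (gp120), and SESN2 0.14 (B minus A). With normexp XBP1 gave 0.02 and 0.03. With the deposited table DDIT3 gave -0.06, HERPUD1 0.12 and VLDLR 0.47 (gp120), VLDLR -0.38 (TAT minus gp120), and PPP1R15A 0.04 and MARS1 -0.10 (C minus A). With slide row as a block DDIT3 gave -0.24 and DNAJB9 0.28 (TAT), and -0.09 and 0.12 (gp120). With scan as a block or in scan 2 alone, gp120 gave HSP90B1 -0.01, DDIT3 -0.30, ATF4 -0.10, DNAJB9 0.12 and ASNS -0.07, and TAT minus gp120 gave HSPA5 0.01 and DNAJB9 -0.57. With an array left out, TAT differences ran from -0.04 to 0.49 (HSPA5), -0.07 to 0.13 (DDIT3), -0.26 to 0.36 (ATF4), -0.72 to 0.15 (HERPUD1) and -0.19 to 1.03 (PDIA4). Those of gp120 ran from -0.07 to 0.44 (DDIT3), -0.13 to 0.49 (ATF4), -0.74 to 0.13 (HERPUD1) and -0.18 to 1.03 (PDIA4), and TAT minus gp120 from -0.31 to 0.06 (HSPA5) and -0.21 to 0.52 (DNAJB9). A group left with 1 array was assumed to vary like the others.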

Other observations

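The genes whose level most resembled that of DNAJB9 over the 8 arrays, listed after its values were seen, were AGAP3, TBX1, LYZ, RBP4 and KMO (Pearson r of 0.989 to 0.977). LYZ encodes lysozyme, which phagocytes and glands secrete. It read 5.94, 6.17 and 5.81 on the letter A arrays (control, TAT, gp120), 4.53, 4.21 and 3.67 on those of letter B, and 1.66 and 1.92 on those of letter C (TAT, gp120). RBP4 encodes the plasma carrier of retinol. It read 5.28, 4.82 and 4.89 in letter A, 3.34, 3.13 and 3.26 in letter B, and 1.52 and 1.09 in letter C.

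The letters of LYZ and of RBP4 did not overlap, and the spread over the 8 arrays was 4.51 log2 units for LYZ and 4.19 for RBP4, beside 1.63 for DNAJB9. KMO, an enzyme of tryptophan breakdown by the kynurenine route, read 0.10 to 1.12 in letter A and was well above background on at most 6 of 8 arrays, so no difference is given for letter C. Since these genes were picked for their likeness to DNAJB9, their order over letters is given as a description, with no test.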
